A study of Homo sapiens with 6 samples.

Results

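The transcripts described here are those of 9 early response genes: IER2, IER3, IER5 and IER5L of the immediate early response group, and BTG1, BTG2, BTG3, TOB1 and TOB2 of the BTG/TOB family. They were chosen by gene symbol from a table of 58735 genes, in which each symbol had 1 row. The 6 libraries came from poly-A enriched RNA of A375, an established human malignant melanoma cell line. Of these, 3 were labelled PAL, for treatment with a Ringer's lactate solution activated by low-temperature plasma, and 3 were labelled control. Both groups share the cell line and the RNA kit, and they differ by the label PAL. The column names of the PAL libraries in the table carry the number 64, for which no unit or meaning is given. The sample labels give no dose, exposure time, liquid for the controls or word on separate cultures. P-values here reflect how far libraries of 1 group differed, a spread that may be technical.

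Immediate early genes are transcribed within minutes of serum, growth factor or stress signals, without a need for new protein. IER2 encodes a nuclear regulator of transcription, and IER3, also called IEX-1, a protein that acts on cell survival. IER5 binds the phosphatase PP2A and the heat shock factor HSF1 and promotes HSF1 activity, and IER5L is its paralog. BTG and TOB proteins restrain proliferation. They carry a shared BTG domain that binds the CCR4-NOT deadenylases, the enzymes that shorten the poly-A tails of mRNAs.

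Assigned reads ranged from 15064971 to 17711389 per library. SOX10, a transcription factor of the melanocyte lineage, stood at 86.4 to 108 FPKM (fragments scaled by gene length and library size), while the pigment gene TYR had no reads in any library and DCT, PMEL and TYRP1 lay below 1 FPKM in all 6. Of 9 melanocytic markers, 4 reached 1 FPKM throughout, with a summed level of 98.2 to 101 FPKM in control and 117 to 118 in PAL. SOX10 carried the higher sum, while S100B went the other way, at 4.52 to 5.54 FPKM in control and 3.89 to 4.24 in PAL, and MITF overlapped between groups. Of 19 markers of keratinocytes, fibroblasts, immune and endothelial cells, 4 reached 1 FPKM throughout, KRT10 (27.6 to 32.0 FPKM), KRT14, LUM and LYZ, and KRT1, DSG3 and CD3E were among those with no reads in any library. The keratinocyte markers summed to 31.5 to 36.4 FPKM in control and 30.8 to 33.4 in PAL, those of fibroblasts to 4.15 to 4.70 and 3.11 to 4.47, immune markers to 4.08 to 5.15 and 3.37 to 4.54, and endothelial markers to at most 0.963 in either group. The heat shock gene HSPA6 was at 1685 to 1999 FPKM in control and at 20.7 to 73.2 in PAL, so high stress transcripts marked the libraries labelled control. The series title also speaks of heat shock proteins going down with PAL. Stressed control cells and exchanged labels cannot be told apart from these files, and an exchange would turn every direction given here, so lower in PAL means lower in the libraries labelled PAL. The part of the stress state in the results below was not tested.

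All 9 genes were lower in PAL. Each had at least 1 FPKM in all 6 libraries, so all 9 were tested, and 9 were called lower and 0 higher by limma (adjusted p below 0.05). Among all 12258 genes tested, 25.9% were called in either direction, 14.5% lower and 11.4% higher. On the log2(FPKM + 1) scale, 5 of the 9 fell at least 2-fold, against 1.58% of all genes tested. The 3 PAL libraries lay below the 3 control libraries for 9 of 9, against 23.6% of all genes tested. The median log2 change was -1.25 over the 9 genes and 0.0043 over all genes tested. The falls were unequal: IER5 dropped to 8.35% of its control mean, and IER3 to 78.8%. The genes and this grouping were chosen with earlier results of these data known, so the counts describe them and are no independent evidence.

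**Figure D1:**
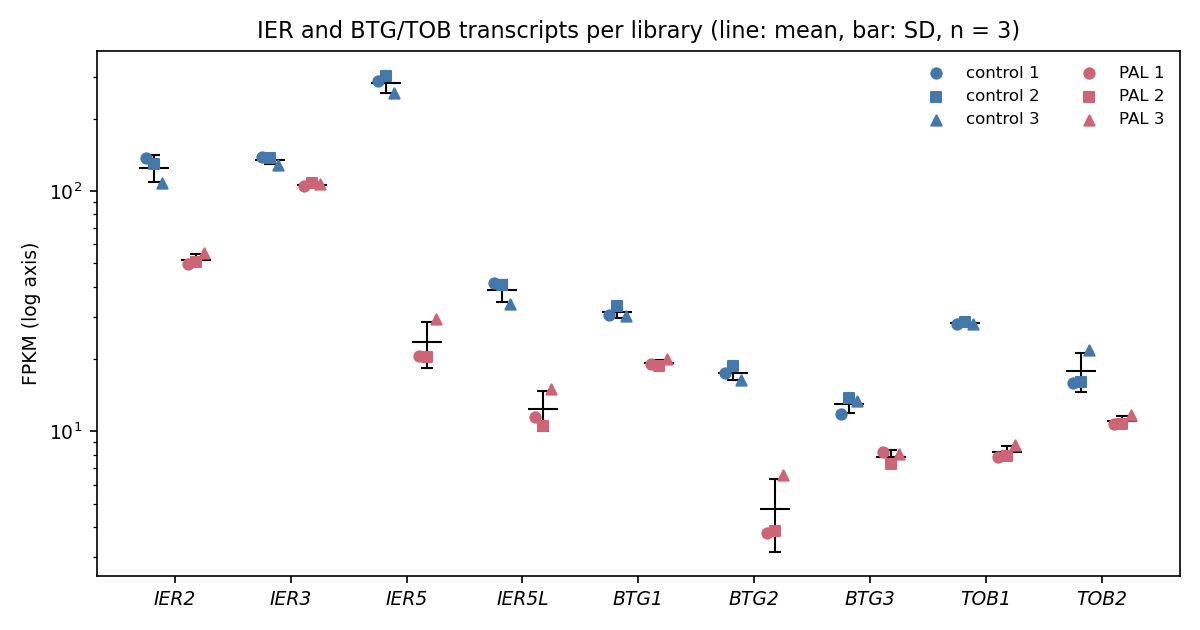
FPKM of the 9 genes in each library on a log axis, control in blue and PAL in red, with a marker shape per replicate number; lines are means and bars SDs of 3 libraries. Every PAL point lies below every control point of the same gene, with the widest gap for IER5 (281 against 23.5 FPKM on average) and the narrowest for IER3 (135 against 106).

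IER5 had the widest difference. It lies on chromosome 1, 181088712 to 181092899 (hg38, plus strand), and its annotated transcript is a single exon. Control libraries 1, 2 and 3 gave 287, 302 and 255 FPKM, and PAL libraries 1, 2 and 3 gave 20.7, 20.4 and 29.4. The lowest control was 8.67 times the highest PAL library. On the log2 scale IER5 fell by 3.54 ± 0.14 (SE), with a limma adjusted p of 1.58e-05, and it ranked 8 of 12258 tested genes when ordered from the deepest fall. The ratio of means was 12.0 and ranged from 11.2 to 13.7 over the other scalings and with single libraries left out. In control it was the 110th gene by mean FPKM, and in PAL the 2007th.

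IER5L, the paralog of IER5 on chromosome 9 (129175552 to 129178262, minus strand), is also a single exon. Its level was far lower, at 41.4, 40.6 and 33.8 FPKM in control libraries 1, 2 and 3 and 11.5, 10.5 and 15.1 in PAL. The groups did not overlap, and the third library stood lowest among controls and highest among PAL. The fall was 1.57 ± 0.13 (SE) on the log2 scale (limma adjusted p = 3.69e-04), with a ratio of means of 3.12. IER5 was thus 7.30 times as abundant as IER5L in control by mean FPKM, and 1.90 times in PAL.

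Both paralogs carried the same 8 bases in the promoter, and their upstream sequences are shown because no other of the 8 genes with a promoter entry had this motif. The RefSeq promoter table (GRCh38.p14) holds windows of 300 bases, 250 before and 50 after a gene start, for 8 of the 9 genes. The core of the heat shock element, the site of heat shock factors, was searched as GAANNTTC and as TTCNNGAA, each of which reads the same on both strands. The first form was found in IER5 and IER5L, and in 6.77% of 35116 promoter windows. The second was found in none of the 8 genes and in 7.74% of windows. In IER5 the match covers positions -226 to -219 from the RefSeq start, and in IER5L -212 to -205, and both read GAACATTC. Below, IER5 (chr1:181088450-181088699, plus strand) and IER5L (chr9:129178263-129178511, minus strand) have that match in capitals. BTG2 (chr1:203305269-203305490, plus strand), the gene with the next deepest fall after IER5, is printed beside them with the core of the cAMP response element in capitals.
IER5: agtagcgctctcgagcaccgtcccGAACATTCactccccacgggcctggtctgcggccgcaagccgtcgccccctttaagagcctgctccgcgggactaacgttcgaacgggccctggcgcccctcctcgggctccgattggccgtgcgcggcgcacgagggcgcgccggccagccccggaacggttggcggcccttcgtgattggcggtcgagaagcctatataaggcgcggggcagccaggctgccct
IER5L: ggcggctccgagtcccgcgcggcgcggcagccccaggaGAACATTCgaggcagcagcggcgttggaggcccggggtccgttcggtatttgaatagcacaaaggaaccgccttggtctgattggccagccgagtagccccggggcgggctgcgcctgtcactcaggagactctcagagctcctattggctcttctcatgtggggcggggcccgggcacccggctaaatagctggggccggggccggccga
BTG2: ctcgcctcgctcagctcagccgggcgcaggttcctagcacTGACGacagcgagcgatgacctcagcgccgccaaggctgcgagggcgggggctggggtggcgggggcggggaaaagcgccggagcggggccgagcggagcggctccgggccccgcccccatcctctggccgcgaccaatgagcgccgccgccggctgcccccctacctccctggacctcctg

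The cAMP response element core TGACG, searched on both strands, was present in windows of BTG1, BTG2, IER2 and TOB1, and in 24.6% of all windows. For TOB1 the match lay only in the window of a start inside the gene, not in that of its outer start. Genes were counted with a match in any of their windows, while the shares are of single windows. The full palindrome TGACGTCA, which contains that core, was in none of the 8 genes and in 1.85% of windows. Neither the CArG box of the serum response factor SRF (1.29% of windows) nor the NF-kB consensus (5.91%) matched in any of the 8. These are matches of letters within short windows and say nothing about binding, or about sites elsewhere.

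**Figure D2:**
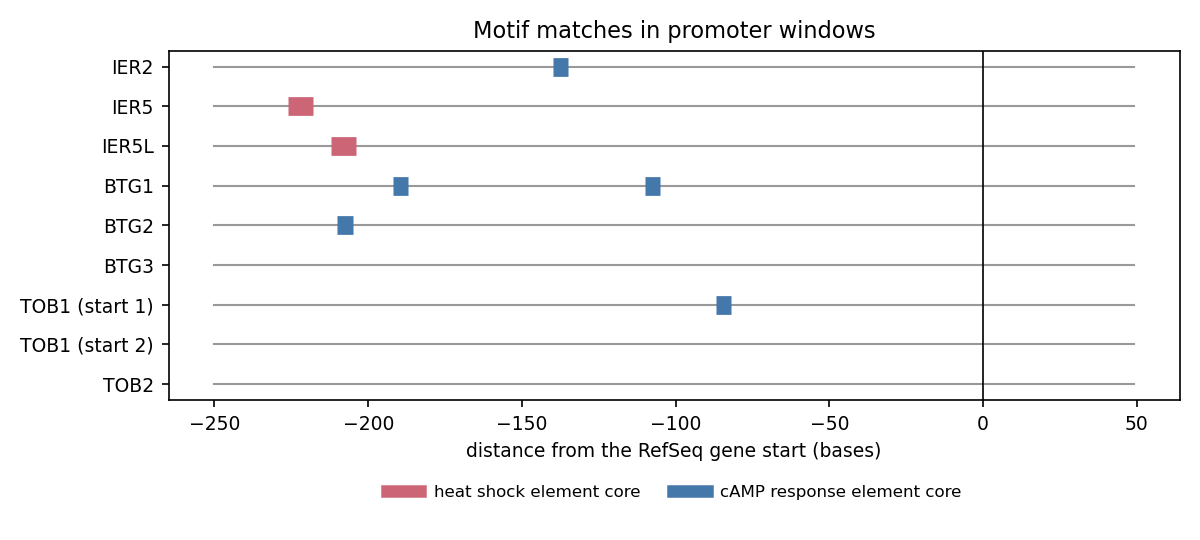
Motif matches in the RefSeq promoter windows of 8 genes, by distance from the gene start in bases; red blocks are the heat shock element core and blue blocks the cAMP response element core. IER5 and IER5L have 1 red block each in the distal part of the window, and TOB1 is drawn for 2 annotated starts, the first of them the one inside the gene.

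IER2 (chromosome 19, 13150415 to 13154908, plus strand) was among the 3 most abundant of the 9 genes in both groups. Control libraries 1, 2 and 3 were at 138, 130 and 108 FPKM and PAL libraries at 49.9, 50.4 and 55.3. The controls were spread more widely than PAL, and the groups did not overlap. IER2 fell by 1.25 ± 0.09 (SE) on the log2 scale (limma adjusted p = 1.79e-04), to 41.4% of its control mean. An antisense gene that overlaps it, AC011446.2, went from 21.9 to 27.5 FPKM in control to 10.3 to 11.9 in PAL (limma adjusted p = 5.97e-04). No source says whether counting used strand, so reads of the overlap cannot be told apart.

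IER3 (chromosome 6, 30743199 to 30744554, minus strand) differed least. It stood at 139, 137 and 129 FPKM in control libraries 1, 2 and 3 and at 105, 108 and 107 in PAL. The gap was narrow, with the lowest control at 1.19 times the highest PAL library, but the spread within groups was narrower still. The fall of 0.34 ± 0.03 (SE) on the log2 scale passed (limma adjusted p = 8.05e-04). Its overlapping antisense gene IER3-AS1 ranged from 18.2 to 22.4 FPKM in control and 13.9 to 18.5 in PAL and did not pass (limma adjusted p = 0.112).

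In the BTG/TOB family, BTG2 and TOB1 separated from BTG1, BTG3 and TOB2. BTG2, a p53 target that slows the cell cycle (chromosome 1, 203305491 to 203309602, plus strand), was at 17.4, 18.7 and 16.4 FPKM in control libraries 1, 2 and 3. In PAL it was at 3.79, 3.85 and 6.56, the last being the third library. The fall was 1.72 ± 0.17 (SE) on the log2 scale, with a limma adjusted p of 8.69e-04. The ratio of means was 3.70, and 4.58 without PAL replicate 3. BTG2 rested on the fewest reads of the 9, 177 in PAL replicate 2, where the exact 95% Poisson interval spans 3.30 to 4.46 FPKM. This interval covers counting error alone, since reads copied by PCR are not independent molecules.

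TOB1, which joins the deadenylases to poly-A binding protein (chromosome 17, 50862223 to 50867978, minus strand), had the tightest controls of the 9 genes. Control libraries were at 28.1, 28.5 and 28.0 FPKM and PAL libraries at 7.83, 7.91 and 8.74. The lowest control was 3.21 times the highest PAL library. TOB1 fell by 1.67 ± 0.04 (SE) on the log2 scale and had the lowest limma adjusted p of the 9 genes, 3.79e-06.

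The remaining members of the family fell less and by similar amounts. BTG1 (chromosome 12, 92140278 to 92145897), which binds the arginine methyltransferase PRMT1 as BTG2 does, was at 30.4, 33.2 and 30.3 FPKM in control and 19.0, 18.7 and 19.9 in PAL, a fall of 0.68 ± 0.05 (SE, limma adjusted p = 1.29e-04). BTG3 (chromosome 21, 17593653 to 17612947) was at 11.8, 13.7 and 13.4 FPKM in control and 8.16, 7.27 and 8.07 in PAL, a fall of 0.66 ± 0.07 (SE, limma adjusted p = 8.98e-04). TOB2 (chromosome 22, 41433492 to 41447023), the paralog of TOB1, was at 15.8, 16.1 and 21.8 FPKM in control and 10.7, 10.7 and 11.6 in PAL. Its fall of 0.64 ± 0.11 (SE) carried the highest limma adjusted p of the 9, 0.00828, and the spread of its controls came from the third library, which stood above the others. Without control replicate 3 the ratio of means of TOB2 went from 1.63 to 1.45. For BTG1, BTG3 and TOB2 the control and PAL libraries did not overlap. The oocyte-enriched member BTG4 had no reads in control and at most 0.0665 FPKM in PAL, and was not tested.

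**Figure D3:**
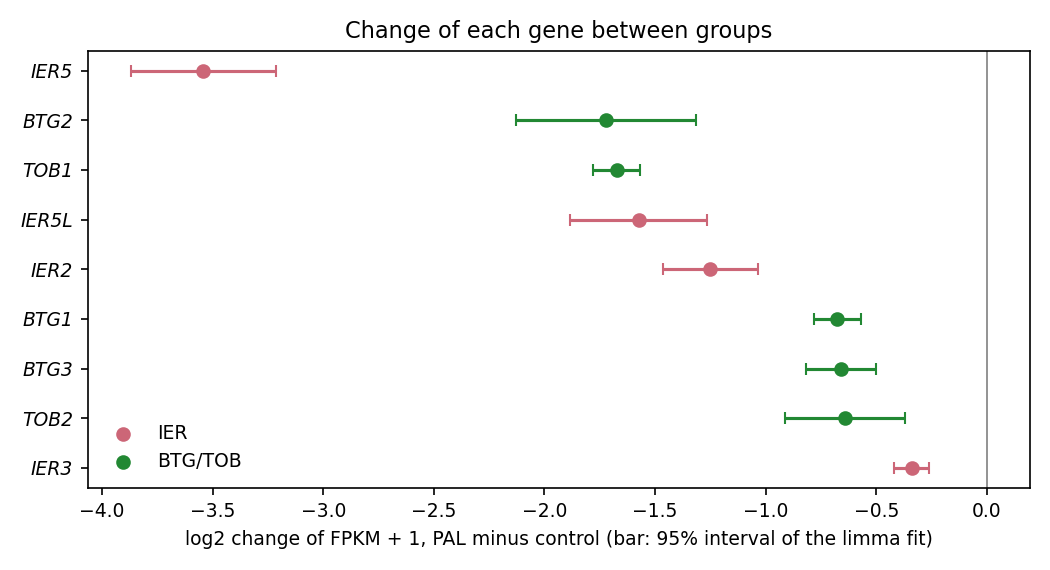
Log2 change of FPKM + 1 for each gene, PAL minus control, with the 95% interval of the limma fit, IER genes in red and BTG/TOB genes in green. All intervals lie below 0, from IER5 at -3.54 to IER3 at -0.34, and BTG1, BTG3 and TOB2 lie close together near -0.66.

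Paralogs were compared by the log2 ratio of their FPKM within each library, over 16 pairs in the 2 families. For 12 pairs the ratios of the 3 control and 3 PAL libraries did not overlap. Pairs share genes, and no share over other gene pairs was computed, so this count only describes the 16. Among all single genes tested, 23.6% had every PAL library below every control library, and 21.4% had every PAL library above. With 3 libraries against 3 the smallest p of the exact two-sided permutation test is 0.1, so no pair could pass, and after Benjamini-Hochberg adjustment over the 16 pairs these 12 had p = 0.133. The log2 ratio of IER5 to IER5L was 2.79 to 2.92 in control and 0.84 to 0.97 in PAL. That of TOB1 to TOB2 was 0.37 to 0.82 in control and -0.45 to -0.41 in PAL, so TOB1 was above TOB2 in each control library and below it in each PAL library. BTG1 to BTG2 went from 0.80 to 0.89 in control to 1.60 to 2.33 in PAL. Among the 4 pairs whose ratios overlapped, BTG1 to BTG3 changed by 0.02, BTG1 to TOB2 by -0.02, BTG3 to TOB2 by -0.04 and BTG2 to TOB1 by -0.14. Overlap does not show that these pairs changed alike.

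The make-up of each family is given as shares of its summed FPKM, none of which could pass a test with 3 libraries a group. IER5 held 48.5% ± 1.04 (SD, n = 3) of the summed IER FPKM in control and 12.0% ± 1.93 in PAL, while IER3 went from 23.3% ± 1.07 to 54.9% ± 2.86. IER2 made up 20.5% to 22.8% in control and 26.6% to 26.8% in PAL. The share of IER5L overlapped between groups, at 6.64% ± 0.207 and 6.34% ± 0.879. The IER sum itself was 580 ± 47.5 FPKM in control and 194 ± 10.7 in PAL. In the BTG/TOB family the sum went from 108 ± 3.76 to 50.9 ± 3.50 FPKM. BTG1 went from 29.0% ± 1.30 to 37.8% ± 1.30, and TOB1 went from 26.2% ± 0.839 to 16.0% ± 0.291. BTG2 stood at 16.2% ± 1.15 and 9.18% ± 2.40. Apart from the share of IER5L, these shares and sums did not overlap between groups. Each of those had the smallest exact permutation p of 0.1 (0.11 after adjustment over 11 values). For the share of IER5L the exact permutation p was 0.6 (0.6 after adjustment).

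**Figure D4:**
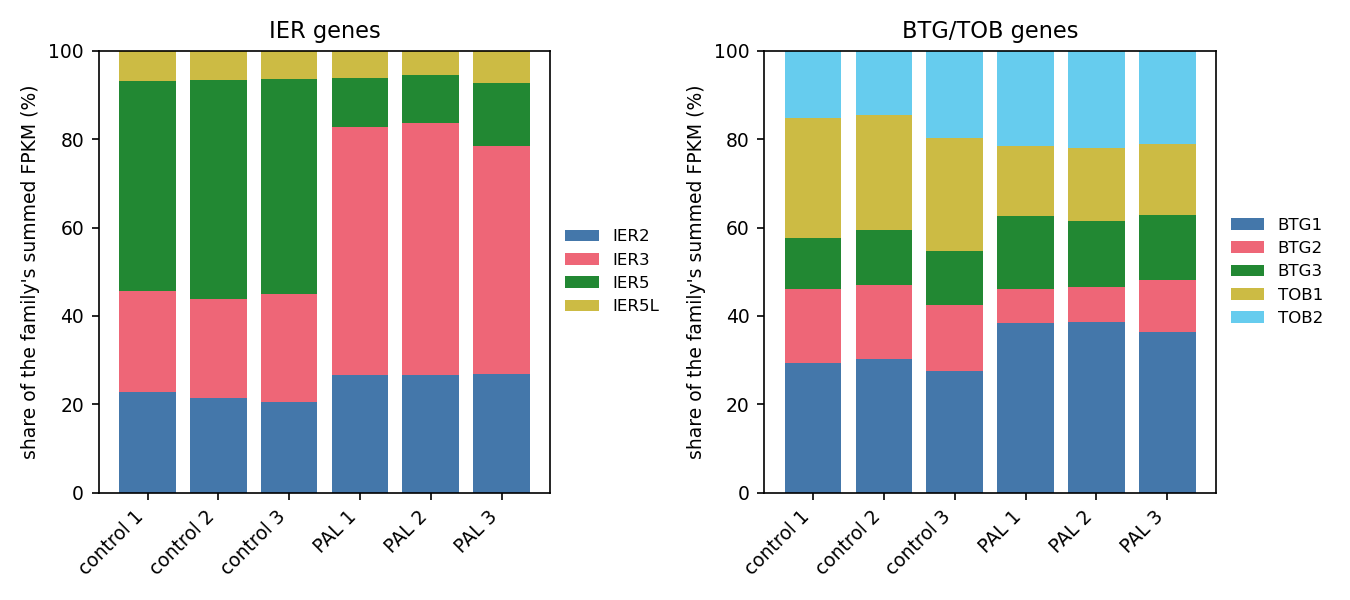
Share of each gene in the summed FPKM of its family, in percent, for each of the 6 libraries. The green IER5 block takes 47.4% to 49.5% in control and 10.8% to 14.3% in PAL, where the IER3 block is the tallest, and TOB1 and BTG2 take smaller shares of their family in PAL.

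FPKM is per gene length, so levels can be ordered across genes, with a limit. For the 9 genes the length used was that of all annotated exons joined, and the values do not show which transcripts were present. In control the order by mean FPKM was IER5, IER3, IER2, IER5L, BTG1, TOB1, TOB2, BTG2 and BTG3. Neighbours in this order did not overlap between libraries, except IER3 with IER2 and TOB2 with BTG2. In PAL the order was IER3, IER2, IER5, BTG1, IER5L, TOB2, TOB1, BTG3 and BTG2, in which IER5L overlapped TOB2 and TOB1 overlapped BTG3. IER5 stood at rank 1 in control and rank 3 in PAL, and BTG2 was the lowest of the 9 in PAL.

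Libraries numbered 3 stood nearer to the other group for some genes. PAL replicate 3 was the highest PAL library for 7 of the 9 genes, and for IER2, IER5, IER5L and BTG2 its exact 95% Poisson interval lay above those of both other PAL libraries. Control replicate 3 was the lowest control for 7 genes, with its interval below the other 2 for IER2, IER5 and IER5L, and above them for TOB2. HSPA6 and FOS, an AP-1 transcription factor, moved with this: PAL replicate 3 was at 73.2 FPKM of HSPA6 and 23.9 of FOS, against at most 27.4 and 10.5 in the other PAL libraries, and control replicate 3 was at 1685 and 32.8, against at least 1960 and 75.9. HSPA1A, another heat shock gene, was at 95.4 FPKM in PAL replicate 3 and at most 51.7 in the other PAL libraries. Its control replicate 3, at 1379 FPKM, lay between control replicates 1 (1364) and 2 (1414), so HSPA1A did not follow the control side. The part of this stress state in the spread of the 9 genes was not tested. Without both libraries numbered 3, all 9 genes were still called lower, with limma adjusted p from 4.76e-06 to 0.0127.

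The genes with the most similar profiles over the 6 libraries were sought among 10329 tested protein-coding genes, by the root mean square distance between log2(FPKM + 1) profiles centred on their own means. Nearest to IER5 was ATF3, a stress-induced transcription factor, at a distance of 0.124, with means of 32.7 FPKM in control and 2.05 in PAL. Next came ZFAND2A, a proteasome-associated gene induced by heat and arsenite, at 0.208, with 116 and 10.8 FPKM. The 2 nearest to IER5L included NR4A2, an orphan nuclear receptor of the immediate early class (0.0805). BTG2 lay nearest to CYR61, a secreted matrix protein (0.0941), and NFKBIA, an inhibitor of NF-kB (0.0968). TOB1 was followed most closely by CXCL8, the chemokine interleukin-8 (0.0396), and TSPYL2 (0.0544), and IER2 by SERTAD3 (0.0479) and the pseudokinase TRIB1 (0.0492). Among the genes with smaller falls, BTG3 had RNF103 (0.0182) and CHORDC1, an HSP90 co-chaperone (0.0390). BTG1 had CDKN2AIP (0.0325) and OLIG2 (0.0371), IER3 had SCAF8 (0.0261) and OAT (0.0286), and the 2 nearest to TOB2 included KDM2A (0.0606). OLIG2 was low, at means of 1.71 FPKM in control and 0.703 in PAL, where this scale understates changes. By voom on recovered reads OLIG2 fell by 1.27 and BTG1 by 0.70 on the log2 scale. The 6 libraries form 2 groups, and each of the named neighbours was itself called lower in PAL.

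The 4 lists of partner proteins and upstream factors had median log2 changes from -0.10 (PP2A and HSF1) to 0.07, against 0.0043 over all genes tested. Of 19 tested genes of deadenylation, which hold the CCR4-NOT subunits, PAN2-PAN3, poly-A binding proteins and CPEB proteins, 4 were lower and 0 higher (without adjustment, 1 was higher at p below 0.05; voom on recovered reads gave 1 higher and 6 lower). Their median log2 change was -0.03. Of all genes tested, 14.5% were lower and 11.4% higher. CPEB2, a regulator of poly-A tails, fell by 0.47 and CNOT1, the scaffold of CCR4-NOT, by 0.28 on the log2 scale. CPEB4 fell by 0.20 (limma adjusted p = 0.0356), a call that was lost under 9 of 19 alternatives. CNOT6L, one of the deadenylases of CCR4-NOT, fell by 0.32, a call that was lost without control replicate 1 (limma adjusted p = 0.0548), without PAL replicate 2 (0.0613), without PAL replicate 3 (0.0527), without both libraries numbered 3 (0.102) and with no filter (0.0592). Scaling by plain read totals moved the median of all genes up by 0.07 and called 25.3% of them higher and 9.22% lower, and under it 3 genes of this list were lower and 4 higher.

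Among 12 tested genes of PP2A subunits and HSF1, the partners of IER5, 4 were lower and 0 higher (0 higher also without adjustment, and 0 by voom), with a median of -0.10. Beside this, 14.5% of all genes tested were lower and 11.4% higher. The scaffold subunit PPP2R1B fell by 0.27 and the catalytic subunit PPP2CB by 0.24. The calls of PPP2CA (limma adjusted p = 0.0483) and PPP2R5A (0.0276) were lost under 11 and 7 of 19 alternatives. With plain read totals 2 genes of this list were lower and 2 higher. As TPM the counts were the same, beside 22.0% of all genes higher and 9.54% lower. In the list of SRF, CREB and ERK pathway genes, which act upstream of immediate early genes, 2 of 17 were lower and 2 higher, with a median of 0.07. SRF itself, the factor that binds CArG boxes, went from 21.9 ± 1.71 to 14.4 ± 0.535 FPKM, a fall of 0.57 ± 0.06 (SE, limma adjusted p = 8.98e-04). ELK4, a cofactor of SRF, rose by 0.23. RPS6KA3, a kinase downstream of ERK, fell by 0.13, a call that was lost under 8 of 19 alternatives, among them TPM (limma adjusted p = 0.202), plain read totals (0.268, the highest) and leaving out control replicate 2 (0.0634), PAL replicate 1 (0.0567) or PAL replicate 2 (0.0710). With plain read totals 1 gene of this list was lower and 5 were higher, beside the 25.3% of all genes that were higher under that scaling. The rise of RPS6KA4 by 0.15 was lost when any library but control replicate 3 was left out (adjusted p 0.0581 to 0.119). Of 7 tested proteins that bind BTG or TOB, limma called 0 (2 were higher without adjustment, and voom called 1 higher). PRMT1 stood at 75.8 ± 2.05 and 76.4 ± 2.95 FPKM, and SKP2, the ubiquitin ligase subunit that targets TOB1, at 29.0 ± 0.302 and 30.7 ± 0.890. SKP2 passed as higher when scaled to TPM (limma adjusted p = 0.00848), where the list had 2 higher.

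**Figure D5:**
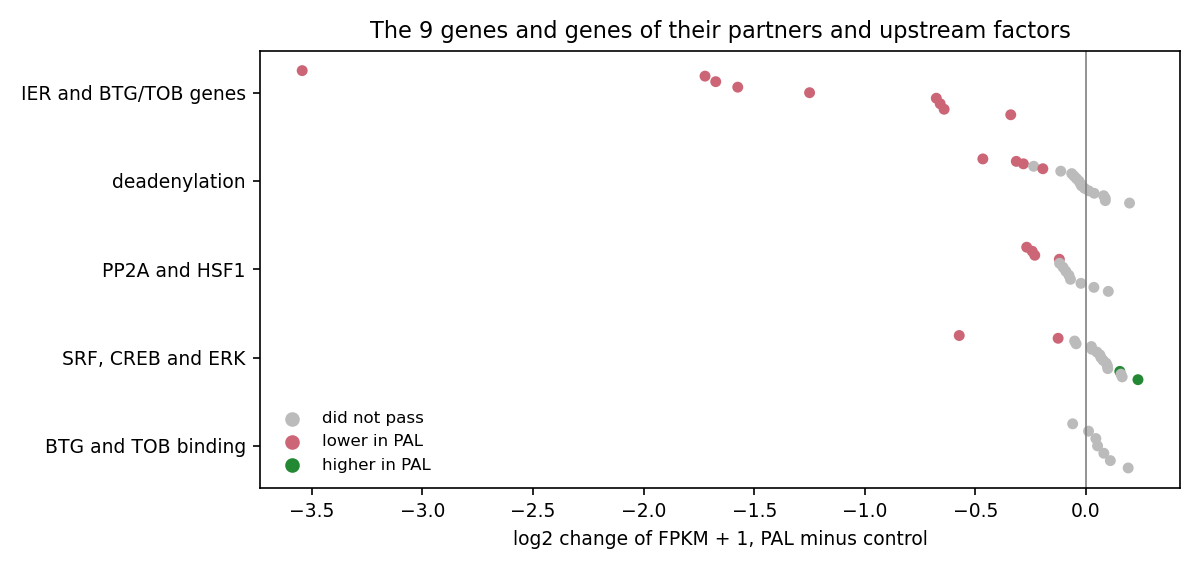
Log2 change of FPKM + 1, PAL minus control, for the 9 genes (top) and the tested genes of 4 lists of partners and upstream factors, with genes called lower in red, higher in green and neither in grey. Medians of the lists run from -0.10 (PP2A and HSF1) to 0.07. Genes of the lists run from CPEB2 and SRF on the left to ELK4 on the right, while the 9 genes extend to -3.54.

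Most of the 9 genes have compact loci. From start to end, 7 of the 9 span 1356 to 5756 bases, against a median of 32160 bases over 10338 tested protein-coding genes. BTG3 spans 19295 bases and TOB2 13532, and 35.1% and 25.9% of the tested protein-coding genes had a shorter span. Protein-coding transcripts of IER5 and IER5L have 1 exon, those of BTG1, BTG2 and TOB2 have 2, and BTG3 has up to 6. Genes next to them were called in both directions. Within 100000 bases of the 9 genes, a window chosen after the data were seen, lay 25 other tested genes that overlapped none of them, of which 3 were lower (12.0%, against 14.5% of all genes tested) and 9 higher (36.0%, against 11.4%). Of the 9 higher, 5 lay beside IER2, and several of these calls were lost when a library was left out. STX6 beside IER5 fell by 0.42 on the log2 scale, and NACC1 beside IER2 rose by 0.30.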

How the data were processed

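The authors deposited 1 table of FPKM per gene and library, per the file headers, with gene length and position. The submitters' processing notes name the build hg38. Aligner, counter and use of strand: not given in the sources used here. Groups and replicate numbers come from the sample titles. Multiplied by gene length and divided by the value of 1 read in that library, 100% of nonzero FPKM values came within 0.01 of an integer, and these integers were taken as reads. The library size behind the FPKM was 0.980 to 0.984 of the assigned reads in control and 1.04 to 1.05 in PAL.

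Genes with at least 1 FPKM in at least 3 libraries were tested with limma 3.58.1 in R 4.3.3 on log2(FPKM + 1), with a variance trend, two-sided, with Benjamini-Hochberg adjustment over 12258 genes and 4 residual degrees of freedom. This scale understates changes of low genes. The fit was also run on simulated reads with the same dispersion for every gene, as a check of the code. That run does not cover the wider spread of genes such as BTG2 in PAL. Alternatives covered pseudocount, filter, scaling, variance model, voom, protein-coding genes, a replicate block and left-out libraries. The 9 genes, the lists and the motifs were chosen with earlier results of these data known. Named genes were the 9, the 2 nearest profiles of each, and HSPA6, HSPA1A and FOS. Each list gave its 2 largest called rises and 2 largest called falls, or its 2 most abundant genes where none was called. CNOT1, CPEB4, PPP2CA, PPP2R5A, BTG4, AC011446.2, IER3-AS1, STX6 and NACC1 were named after their values were seen. Some genes that this rule or the marker lists name are not reported here. Figures used matplotlib 3.10.9.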

Additional observations from a re-analysis of the deposited data

How the results depend on the processing

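All 9 genes were called lower under each of the 19 alternatives, with none higher. Their adjusted p reached at most 0.0364, for TOB2 without PAL replicate 2. Over all genes, 3179 were called, 2103 with no filter and 1855 to 2789 when 1 library was left out. The share of rises among the calls was 44.0% as deposited, 73.3% with plain read totals, 69.7% as TPM and 59.2% with quantile normalization; TPM and plain totals moved the median change of all genes by 0.07. The deadenylation list had 4 calls, 2 with no filter, 7 with plain totals, 7 with voom and 2 to 4 with 1 library left out. The PP2A and HSF1 list had 4, 2 with no filter and 2 to 5 with 1 left out. The SRF, CREB and ERK list had 4, 2 with a replicate block, 2 without both libraries numbered 3 and 2 to 4 with 1 left out. The list of BTG and TOB binding proteins had 0, 2 as TPM, 1 after quantile normalization, 2 with plain totals and 1 with voom. PRMT1, which did not pass, went from 0.01 to between -0.012 and 0.042 on the log2 scale with 1 library left out, and to -0.0046 without control replicate 3. The cause of these shifts was not tested. Replicate numbers are shared between groups without a stated batch, and deviations of same-numbered libraries correlated at -0.024, 0.027 and -0.045 over genes, and not every library correlated best with its own number. The replicate block gave 2131 calls and kept all 9 genes lower. Depth limits BTG2 most, with 177 reads in 1 library.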
